A study of Homo sapiens with 15 samples.

Results

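Heat shock chaperones are the cytosolic and mitochondrial proteins that fold, refold or hold other proteins, and this account follows the transcripts of 10 of them, HSPA1A, HSPA1B, HSPA8, HSPH1, DNAJB1, HSP90AA1, HSP90AB1, HSPB1, HSPD1 and HSPE1. The 10 genes were chosen by name, as the main heat shock-inducible or abundant members of their families, out of 15320 genes listed in the tables of both cell lines, and all 10 were listed and passed the filter on low counts in every model. They were chosen with earlier results of these data known, so counts among them beside the shares of all genes are descriptive. The fibroblast line was MRC5, from human lung. H69 and H196 are small cell lung cancer (SCLC) lines, the former neuroendocrine (NE) and the latter non-NE. MRC5 cells were grown alone (MRC5_Mo), with H69 on the other side of a porous transwell membrane (MRC5_CoH69) or with H196 in the same way (MRC5_CoH196). H196 cells were grown alone (H196_Mo) or with MRC5 (H196_Co), and the 5 groups had 3 libraries each, 15 in all, made after a week of culture. The labels name no genetic change and no drug in any group. Each line was kept in its own medium, MEM for MRC5 and an RPMI medium for H196 and H69, so line and medium cannot be told apart in a comparison between the lines. The medium used during co-culture is not stated, so partner and medium cannot be told apart between co-cultured and mono-cultured groups either. The labels do not say whether the 3 libraries of a group came from separate cultures, so the p-values below measure the spread between these libraries, which may be technical.

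HSP70 proteins bind unfolded stretches of other proteins in an ATP-driven cycle that J-domain proteins start and nucleotide exchange factors end, and many clients are then passed to HSP90 for their last folding steps. Small heat shock proteins hold unfolded proteins without ATP, and in the mitochondrial matrix the HSP60 chamber and its HSP10 lid fold imported proteins. Some of these genes are expressed steadily in growing cells and others mainly after stress, when heat shock factor 1 (HSF1) binds heat shock elements, repeats of a short GAA unit in alternating orientation, in front of them.

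In the genome as the tables give it (GRCh38.p13), HSPA8 lies on chromosome 11 from 123057489 to 123062366, HSPH1 on chromosome 13 from 31134973 to 31162388, DNAJB1 on chromosome 19 from 14514769 to 14530597, HSP90AA1 on chromosome 14 from 102080742 to 102139749, HSP90AB1 on chromosome 6 from 44246194 to 44253883 and HSPB1 on chromosome 7 from 76302673 to 76304292. HSPD1 and HSPE1 lie head to head on chromosome 2, from 197485845 to 197500274 and from 197500379 to 197503449. Heat shock elements are shown first because they are what the promoters of these genes are known for. Promoter windows of 250 bases before and 50 bases after a transcript start were read from RefSeq (GRCh38.p14), which gave 16 windows for the 10 genes, and both strands were searched. A 3-unit element (TTCNNGAA followed directly by NNTTC, or the reverse complement) was found for 4 of the 10 genes, HSPA8, HSP90AA1, HSP90AB1 and HSPD1, against 0.608% of all 27305 genes with a window. A 2-unit element (GAANNTTC or TTCNNGAA, each also part of every 3-unit element) was found for 8 of the 10 genes against 16.2% of all genes. HSPH1 and HSPE1 held neither within these windows. The stretches of 30 bases below hold the longest element found before a start, or of equally long ones the nearest to the start, in capitals, written 5′ to 3′ on the strand of the gene.
HSPA1A, chr6:31815426-31815455, plus strand: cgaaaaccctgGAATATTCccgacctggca
HSPA1B, chr6:31827622-31827651, plus strand: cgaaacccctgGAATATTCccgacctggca
HSPA8, chr11:123062170-123062199, minus strand: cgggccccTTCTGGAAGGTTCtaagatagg
DNAJB1, chr19:14518426-14518455, minus strand: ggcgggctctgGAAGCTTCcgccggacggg
HSP90AA1, chr14:102087111-102087140, minus strand: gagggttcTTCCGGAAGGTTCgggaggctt
HSP90AB1, chr6:44247823-44247852, plus strand: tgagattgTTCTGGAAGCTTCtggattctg
HSPB1, chr7:76302480-76302509, plus strand: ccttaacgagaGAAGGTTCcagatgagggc
HSPD1, chr2:197500059-197500088, minus strand: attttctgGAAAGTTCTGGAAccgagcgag
The capitals in HSPA1A and HSPA1B are the same 8 letters. The GENCODE annotation (release 29, also GRCh38) places the HSPA8, HSP90AA1 and HSPD1 stretches inside an exon of a transcript of the same gene, and the HSPD1 stretch also in an exon of HSPE1, its head-to-head neighbour. The other 5 stretches lie outside the annotated exons of these genes. The DNAJB1, HSP90AA1, HSP90AB1 and HSPD1 stretches lie inside the gene spans given above, before a later transcript start. The most upstream window of each of these genes held neither element. The letters are a description of the windows, and no binding was measured in this study.

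Library totals ran from 16073597 to 19170560 counts, the lowest Pearson correlation between libraries of a group was 0.9927, and no pair of libraries had identical counts. All 12 fibroblast markers looked at reached 1 FPKM (fragments scaled to transcript length and to the mapped fragments of the library) in every MRC5 group. In both H196 groups 2 of them did, FBN1 (3.71 FPKM in H196_Mo and 3.49 in H196_Co) and S100A4 (6.55 and 4.71). The other fibroblast markers, among them the collagens COL1A1, COL1A2 and COL3A1, were under 1 FPKM or not listed in both H196 groups. None of 10 NE markers reached 1 FPKM in any MRC5 group, and 3 did in both H196 groups. Of 7 epithelial markers 4 or 5 reached 1 FPKM in the MRC5 groups and 2 in the H196 groups, with a summed level of 108 to 147 FPKM in MRC5 libraries and 180 to 234 FPKM in H196 libraries, and EPCAM and CDH1 were under 1 FPKM in all groups. The summed level of the 12 fibroblast markers was 6026 to 6684 FPKM in MRC5_Mo libraries and 6873 to 7050 in MRC5_CoH69 libraries. In MRC5_CoH196 libraries it was 3520 to 3686 FPKM. The markers did not fall together there: most of the fall from MRC5_Mo lay in COL1A1 (mean 2628 to 785 FPKM) and COL1A2 (1974 to 1191). COL3A1, FBN1 and THY1 were also lower. COL6A3 (820 to 918), PDGFRB (60.7 to 85.5), PDGFRA and LUM were higher, and DCN, FAP and S100A4 differed little. The part of these markers in the chaperone results was not tested. In bulk RNA, fewer cells of a kind and less RNA of a gene per cell cannot be told apart.

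The first question was how the fibroblasts' chaperone transcripts stood after culture with each SCLC line. All 10 were lower in MRC5_CoH196 than in MRC5_Mo. They took 0.571% ± 0.0199 (SD, n = 3) of the counts of MRC5_Mo libraries, 0.530% ± 0.00404 of MRC5_CoH69 libraries and 0.314% ± 0.00624 of MRC5_CoH196 libraries. A gene was called when its Benjamini-Hochberg adjusted p in edgeR's quasi-likelihood test was under 0.05 and its absolute log2 fold change was above 0.58. By that rule 7 of the 10 fell in MRC5_CoH196, where 14.7% of the 12819 genes tested were called lower. At adjusted p alone all 10 were lower, against 37.1% of genes tested, and for all 10 each MRC5_CoH196 library was below each MRC5_Mo library, which held for 37.9% of genes tested. The median log2 fold change was -0.82 over the 10 and 0.00 over all genes tested. With log2(FPKM + 1) in place of scaled counts these medians were -0.98 and -0.13.

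**Figure D1:**
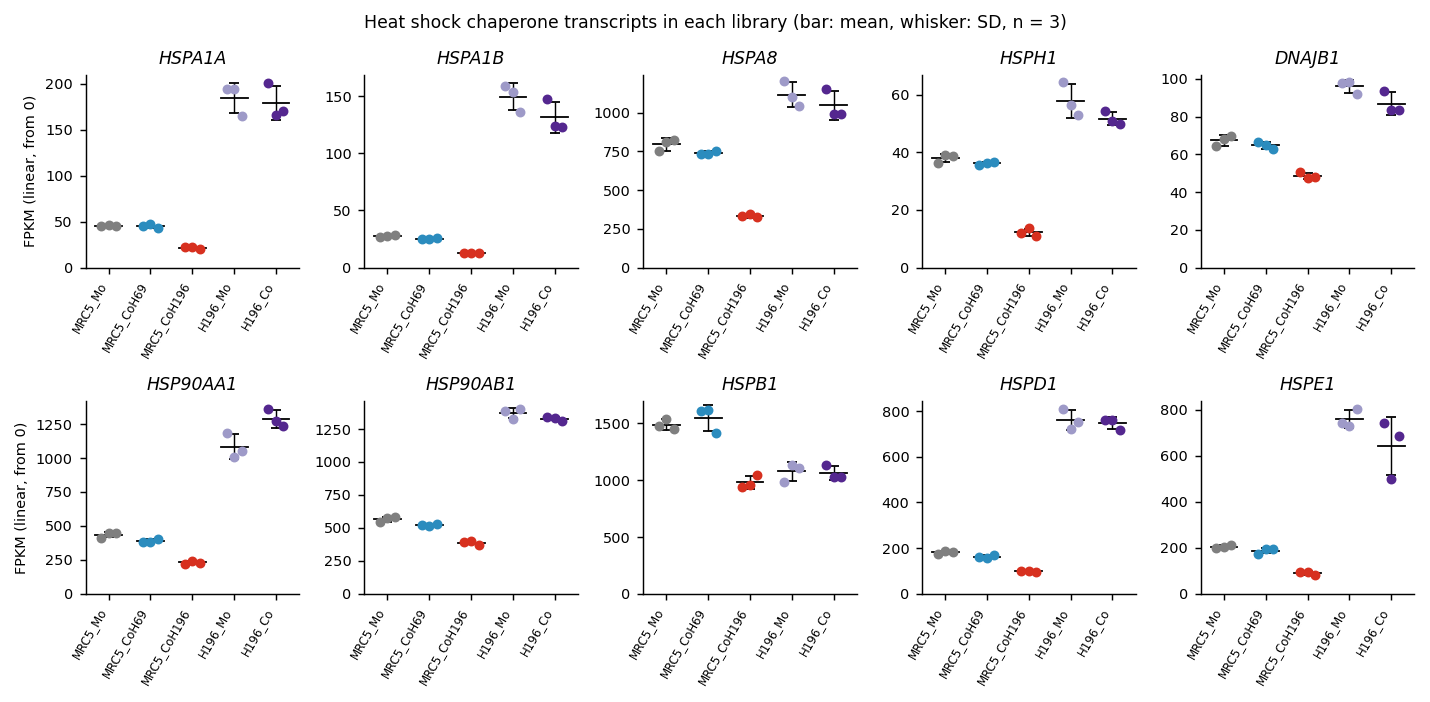
FPKM of each of the 10 chaperone transcripts in all 15 libraries, 1 panel per gene on a linear axis from 0, with points for libraries, a bar for the group mean and whiskers for the SD (n = 3). The red points of MRC5_CoH196 lie below the grey points of MRC5_Mo in all 10 panels, and the purple points of H196 lie above all MRC5 points except for HSPB1.

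The largest falls were in HSP110 and the constitutive HSP70. HSPH1, the HSP110 that releases ADP from HSP70 and itself prevents aggregation, stood at 36.4, 39.1 and 38.6 FPKM in the MRC5_Mo libraries and at 12.1, 13.6 and 11.1 FPKM in the MRC5_CoH196 libraries. It fell by 1.43 on the log2 scale (SE 0.054, adjusted p = 1.24e-17) and was 2.70-fold lower, with a log2 fold change at percentile 1.37 of all genes tested. HSPA8, the constitutive HSP70 of the cytosol, had 749.8, 809.7 and 823 FPKM in MRC5_Mo and 330.3, 348 and 325 FPKM in MRC5_CoH196. It fell by 1.08 (SE 0.042, adjusted p = 2.21e-17), with every co-cultured library well below every MRC5_Mo library.

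The stress-inducible HSP70 pair moved with it. HSPA1A stood at 44.9, 46.4 and 45.5 FPKM in MRC5_Mo and 22.3, 21.8 and 20.6 FPKM in MRC5_CoH196, and HSPA1B at 26.3, 27.5 and 28.1 FPKM against 12.6, 12.5 and 12.5 FPKM. HSPA1A fell by 0.91 (SE 0.052, adjusted p = 4.74e-14) and HSPA1B by 0.95 (SE 0.052, adjusted p = 1.97e-14). The 2 genes are near-identical copies, so the split of reads between them is an estimate of the counting tool, and neither was given chromosome coordinates in the tables as deposited. Their sum does not depend on that split: it fell by 0.92 on the log2 scale (adjusted p = 2.34e-15), and HSPA1A took 61.3% of the pair's counts in MRC5_Mo, 63.1% in MRC5_CoH69 and 62.0% in MRC5_CoH196. DNAJB1, the J-domain protein that hands clients to HSP70 and is a classical heat shock gene, differed least of the 10. It had 64.3, 68.2 and 70.0 FPKM in MRC5_Mo and 50.6, 47.6 and 47.8 FPKM in MRC5_CoH196, a log2 fold change of -0.30 (SE 0.048, adjusted p = 4.54e-06) that was past the p limit and short of the fold limit.

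Of the 2 cytosolic HSP90 genes, the inducible one moved further. HSP90AA1 stood at 414, 449.8 and 447 FPKM in MRC5_Mo and 222, 243 and 230.3 FPKM in MRC5_CoH196, and fell by 0.74 (SE 0.042, adjusted p = 5e-14). HSP90AB1, the constitutive form, stood at 545, 573 and 581 FPKM in MRC5_Mo and at 394, 399 and 374 FPKM in MRC5_CoH196, with a log2 fold change of -0.37 (SE 0.040, adjusted p = 7.79e-09) that was short of the fold limit. HSPB1 (HSP27), a small heat shock protein that also binds actin, was the most abundant of the 10 in MRC5, with 1477, 1541 and 1448 FPKM in MRC5_Mo and 942, 957 and 1048 FPKM in MRC5_CoH196. Its log2 fold change of -0.43 (SE 0.051, adjusted p = 3.86e-08) missed the fold limit, and on the log2(FPKM + 1) scale it passed, at -0.60 (limma, adjusted p = 2.04e-06).

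Both partners of the mitochondrial folding chamber fell. HSPD1 (HSP60) stood at 173, 187 and 185 FPKM in MRC5_Mo and 99.4, 101.8 and 96.4 FPKM in MRC5_CoH196, and fell by 0.70 (SE 0.042, adjusted p = 1.64e-13). HSPE1 (HSP10), its divergent neighbour, stood at 199.6, 205 and 212 FPKM in MRC5_Mo and 95.1, 95.3 and 80.3 FPKM in MRC5_CoH196, and fell by 1.03 (SE 0.069, adjusted p = 1.06e-12). Reads of the HSPE1-MOB4 read-through gene, which shares sequence with HSPE1, numbered 0 to 17 per library.

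**Figure D2:**
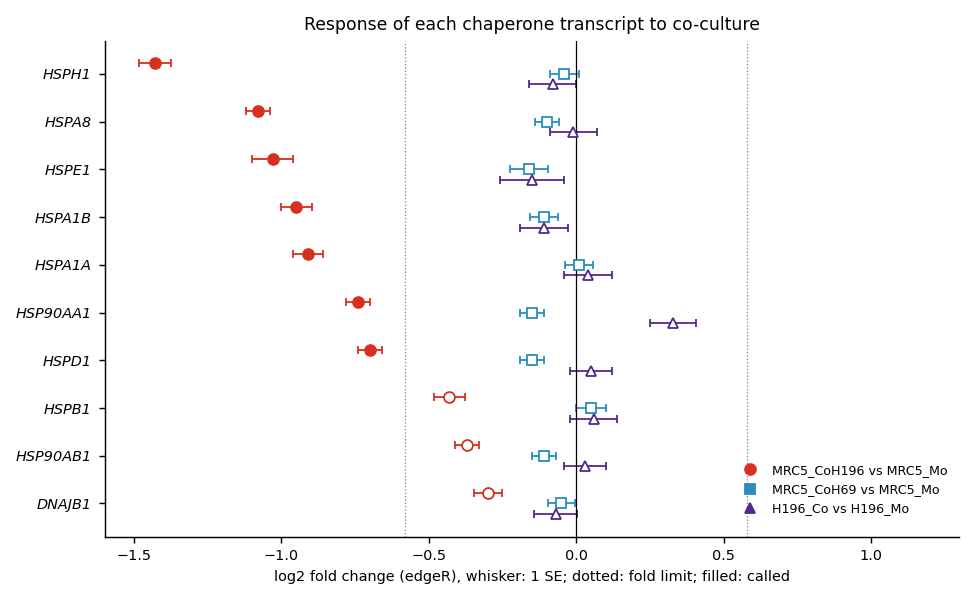
Log2 fold change (edgeR) of each chaperone transcript in 3 comparisons, with whiskers of 1 SE, dotted lines at the fold limit of 0.58 on either side of 0, and filled symbols for genes called. Filled symbols appear for 7 genes, all in MRC5_CoH196 against MRC5_Mo, and HSP90AA1 in H196_Co is the open triangle farthest to the right.

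Co-culture with H69 left no member past both limits. In MRC5_CoH69 against MRC5_Mo 0 of the 10 were called, where 0.133% of genes tested were called lower, and DESeq2's Wald test and limma on log2(FPKM + 1) also called 0. At an unadjusted p under 0.05, edgeR gave 6 members lower and 0 higher. The share of all genes at that limit was not counted, so these counts cannot be set against it. At adjusted p alone 2 were lower, against 2.93% of genes tested. HSP90AA1 had 384, 385 and 405 FPKM in MRC5_CoH69, a log2 fold change of -0.15 (SE 0.042, edgeR adjusted p = 0.0315), and HSPD1 had 162, 157 and 168 FPKM, also -0.15 (SE 0.042, edgeR adjusted p = 0.0303). With one library left out the adjusted p reached 0.174 for HSP90AA1 and 0.166 for HSPD1. With limma on log2(FPKM + 1) neither was past 0.05 (adjusted p = 0.0887 for HSP90AA1 and 0.0647 for HSPD1). In edgeR with the replicate number as a block the adjusted p was 0.0345 for HSP90AA1 and 0.0511 for HSPD1. The libraries of 6 members did not overlap and were lower in MRC5_CoH69, which held for 12.1% of genes tested. The log2 fold changes of the 10 ran from -0.16 for HSPE1 to 0.05 for HSPB1.

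The 2 co-cultured fibroblast groups were then compared directly, a comparison that shares the MRC5_CoH196 libraries with the one above. In MRC5_CoH196 against MRC5_CoH69 6 of the 10 fell (13.1% of genes tested were called lower), and all 10 were lower at adjusted p alone (36.6% of genes tested). HSPH1 fell by 1.39 (SE 0.054, edgeR adjusted p = 2.64e-17), HSPA8 by 0.98, HSPA1A by 0.91, HSPE1 by 0.87, HSPA1B by 0.84 and HSP90AA1 by 0.59. HSP90AA1 lay close to the fold limit and was no longer called without MRC5_CoH196 replicate 1, at -0.56, or without MRC5_CoH69 replicate 3, at -0.57. HSPD1, at -0.55 (SE 0.043, edgeR adjusted p = 2.13e-11), was short of the fold limit. With limma on log2(FPKM + 1) 8 of the 10 were called, HSPD1 at -0.71 and HSPB1 at -0.65 among them. On that scale 1746 of all 12819 genes tested were called lower.

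H196 cells showed the chaperones at other levels and with little difference on co-culture. They took 1.18% ± 0.0493 (SD, n = 3) of the counts of H196_Mo libraries and 1.21% ± 0.0551 of H196_Co libraries. In H196_Co against H196_Mo 0 of the 10 were called by edgeR (3.26% of the 12806 genes tested were called higher and 0.601% lower), by DESeq2's Wald test or by limma on log2(FPKM + 1). At edgeR's adjusted p alone 1 of the 10 differed, against 19.8% of genes tested. It was also the single member with an unadjusted p under 0.05 in edgeR and in DESeq2's Wald test. This was HSP90AA1, with 1187, 1007 and 1053 FPKM in H196_Mo and 1364, 1271 and 1232 FPKM in H196_Co, without overlap (20.2% of genes tested did not overlap and were higher). Its log2 fold change was 0.33 (SE 0.078, edgeR adjusted p = 0.00532), and the adjusted p stayed at or under 0.0481 with any one library left out. With limma it was not past 0.05, at 0.25 on both FPKM scales (adjusted p = 0.0552 on log2(FPKM + 1) and 0.0519 on log2(FPKM + 0.1)). At an unadjusted p under 0.05, limma on log2(FPKM + 1) gave 1 member higher and 3 lower. The median of all genes tested was -0.06 on that scale, and the share of all genes at that limit was not counted.

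The other 9 overlapped between H196_Mo and H196_Co. HSP90AB1, its paralog, stood at 1388, 1326 and 1401 FPKM in H196_Mo and 1339, 1337 and 1312 FPKM in H196_Co, with a log2 fold change of 0.03 (SE 0.071, edgeR adjusted p = 0.785). HSPE1 had the most uneven libraries, with 744, 732 and 804 FPKM in H196_Mo and 741, 501 and 688 FPKM in H196_Co, of which replicate 2 is the lowest. Its log2 fold change was -0.15 with that library and 0.01 without it. HSPH1, the member with the largest difference in MRC5_CoH196, had 64.3, 56.5 and 52.9 FPKM in H196_Mo and 54.4, 50.9 and 49.8 FPKM in H196_Co, a log2 fold change of -0.08 (SE 0.080, edgeR adjusted p = 0.498).

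The next question was whether the 2 partners of the H196 and MRC5 co-culture differed in their response, which was tested as an interaction over all 15 libraries: the log2 fold change of H196_Co against H196_Mo minus that of MRC5_CoH196 against MRC5_Mo. The difference was positive for all 10 at adjusted p alone (27.1% of the 13585 genes tested) and called for 7 (12.6% of genes tested were called positive). It was 1.38 for HSPH1 (SE 0.097, edgeR adjusted p = 4.81e-12), 1.10 for HSP90AA1 (SE 0.082, edgeR adjusted p = 1.43e-11), 1.09 for HSPA8 (SE 0.086, edgeR adjusted p = 4.54e-11), 0.97 for HSPA1A, 0.91 for HSPE1, 0.87 for HSPA1B and 0.78 for HSPD1. HSPB1 at 0.52, HSP90AB1 at 0.43 and DNAJB1 at 0.26 were short of the fold limit. For DNAJB1 the adjusted p was 0.0095 and reached 0.0974 with one library left out. The MRC5 side of each difference rests on the same libraries as the falls described above, so the 2 sets of values are not independent.

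The levels per length were ordered differently in the 2 lines. In MRC5_Mo the order by mean FPKM was HSPB1 (1489 ± 47.6, SD, n = 3), HSPA8 (794 ± 38.9), HSP90AB1 (566 ± 19.2), HSP90AA1 (437 ± 19.6), HSPE1 (206 ± 6.16), HSPD1 (181 ± 7.47), DNAJB1 (67.5 ± 2.91), HSPA1A (45.6 ± 0.721), HSPH1 (38.0 ± 1.43) and HSPA1B (27.3 ± 0.912), and no neighbours in that order overlapped. The order in MRC5_CoH69 was the same. In MRC5_CoH196 HSP90AB1 (389 ± 13.04) stood above HSPA8 (334 ± 12.04), HSPD1 above HSPE1, and HSPH1 (12.3 ± 1.27) overlapped HSPA1B (12.6 ± 0.0656) at the bottom. In H196_Mo HSP90AB1 (1372 ± 40.2) was the most abundant, followed by HSPA8 (1115 ± 80.8), HSP90AA1 (1082 ± 93.3) and HSPB1 (1077 ± 80.6), which overlapped in turn, and then by HSPD1 (761 ± 44.9) and HSPE1 (760.1 ± 38.1), which overlapped. HSPA1A (184 ± 16.7) and HSPA1B (149.6 ± 11.9) stood above DNAJB1 (96.2 ± 3.54) and HSPH1 (57.9 ± 5.86) there. In H196_Co HSP90AA1 (1289 ± 67.6) had moved from the third to the second place and overlapped HSP90AB1 (1329 ± 14.7).

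Grown alone, H196 cells had more of 6 chaperone transcripts than MRC5 cells and less of 1. In the model of all 15 libraries, where 31.5% of genes tested were called higher in H196_Mo and 30.2% lower, HSPA1B was higher by 2.01 on the log2 scale (SE 0.066, edgeR adjusted p = 2.68e-21), HSPD1 by 1.63, HSPA1A by 1.57, HSPE1 by 1.44, HSP90AA1 by 0.87 and HSP90AB1 by 0.84. HSPB1 was lower, at -0.91 (SE 0.069, edgeR adjusted p = 8.29e-13). HSPH1 at 0.17, DNAJB1 at 0.06 and HSPA8 at 0.05 were not called. The sum of HSPA1A and HSPA1B was higher by 1.76 (edgeR adjusted p = 6.02e-20), and HSPA1A took 53.9% of the pair's counts in H196_Mo and 56.4% in H196_Co. These differences depend on the scale. With log2(FPKM + 1) in place of scaled counts, all genes tested had a median of 0.34 instead of 0.03, HSPH1 was called higher at 0.59, HSPA8 and DNAJB1 stood at 0.49 and 0.50, and HSPB1 at -0.47 was no longer called. No member changed sign between the 2 scales.

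Ratios between chaperones that work together do not depend on how libraries are scaled to each other. The HSP90AA1 to HSP90AB1 ratio of FPKM had log2 values of -0.39, -0.35 and -0.38 in MRC5_Mo, -0.44, -0.42 and -0.39 in MRC5_CoH69 and -0.83, -0.71 and -0.70 in MRC5_CoH196. It was -0.23, -0.40 and -0.41 in H196_Mo and 0.03, -0.07 and -0.09 in H196_Co. The mean ratio was below 1 in all 5 groups, at 0.771 in MRC5_Mo, 0.749 in MRC5_CoH69, 0.596 in MRC5_CoH196, 0.788 in H196_Mo and 0.969 in H196_Co. Neither pair of groups overlapped, with a difference of -0.37 for MRC5_CoH196 against MRC5_Mo and 0.30 for H196_Co against H196_Mo. With 3 libraries against 3 the two-sided exact permutation test cannot give a p below 0.1, which both comparisons had, and over the 12 ratio tests made the adjusted p was 0.2.

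The HSPD1 to HSPE1 ratio had log2 values of -0.21, -0.14 and -0.20 in MRC5_Mo and 0.06, 0.09 and 0.26 in MRC5_CoH196, a difference of 0.32 without overlap (exact permutation p = 0.1, adjusted 0.2). In H196_Co replicate 2, the library with the low HSPE1 level, it was 0.60 against 0.04 and 0.06 in the other libraries of that group, and H196_Co and H196_Mo overlapped. The ratio of the inducible pair HSPA1A plus HSPA1B to the constitutive HSPA8 separated the lines more than the conditions. Its mean was 0.0919 in MRC5_Mo, 0.0956 in MRC5_CoH69 and 0.102 in MRC5_CoH196, and 0.299 in H196_Mo and 0.297 in H196_Co. On the log2 scale MRC5_CoH196 differed from MRC5_Mo by 0.15 without overlap (exact permutation p = 0.1, adjusted 0.2) and H196_Co from H196_Mo by -0.01 with overlap (p = 0.9 by the same exact test, adjusted 0.9).

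**Figure D3:**
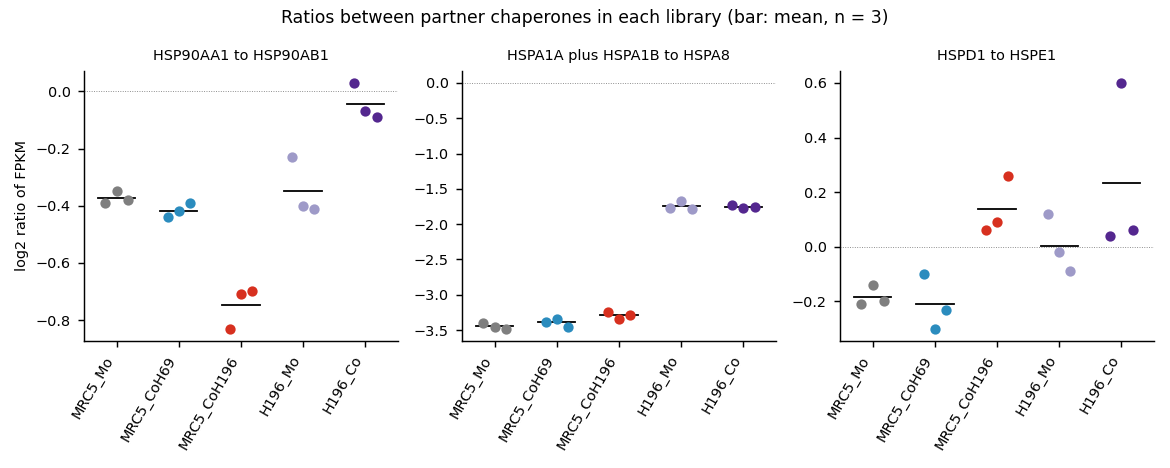
Log2 ratio of FPKM between partner chaperones in each of the 15 libraries, with a bar for the group mean (n = 3) and a separate linear axis in each panel. HSP90AA1 to HSP90AB1 is lowest in MRC5_CoH196 and highest in H196_Co, and HSPA1A plus HSPA1B to HSPA8 separates the 2 lines.

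The wider chaperone network was followed in 7 lists of 111 genes in all, none of them among the 10. In MRC5_CoH196 against MRC5_Mo 10 of the 107 tested rose and 21 fell, where 17.2% of genes tested were called higher and 14.7% lower, and their median log2 fold change was -0.23. With limma 6 rose and 36 fell on log2(FPKM + 1), and 8 and 39 on log2(FPKM + 0.1). Of all 12819 genes tested, limma called 915 higher and 2082 lower on the first scale, and 1437 and 2869 on the second. HSF1, the main factor of the heat shock response, had 38.3 ± 1.69 FPKM (SD, n = 3) in MRC5_Mo and 45.7 ± 2.80 FPKM in MRC5_CoH196, a log2 fold change of 0.43 (SE 0.058, adjusted p = 3.07e-07) that was short of the fold limit and opposite in sign to the 10 chaperones. HSF2 rose by 0.75 (SE 0.088, adjusted p = 3.36e-08) and HSF4, at 17 to 21 counts per MRC5_Mo library, by 1.15. SERPINH1 (HSP47), the collagen chaperone of the endoplasmic reticulum and an HSF1 target, fell by 1.03 (SE 0.045, adjusted p = 3.25e-16), from 707 ± 34.8 to 308 ± 8.82 FPKM.

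The TRiC/CCT chamber, which folds actin and tubulin, and prefoldin, which delivers to it, had 7 of 16 genes lower and 0 higher, with a median of -0.49, where 14.7% of genes tested were called lower and 17.2% higher. CCT6A fell by 0.96 (SE 0.049, adjusted p = 5.59e-15), and PDCL3, a phosducin-like partner of the chamber, by 1.64 (SE 0.088, adjusted p = 1.43e-14). CCT6B fell by 1.51, at 17 to 22 counts per MRC5_Mo library and 4 to 7 per MRC5_CoH196 library. Among 18 HSP90 co-chaperones 3 fell and 1 rose, with a median of -0.46, so the count that fell was near the share of all genes called lower. FKBP5 fell by 1.39, AHSA1, which speeds the ATPase of HSP90, by 0.73 and CHORDC1 by 0.72, and FNIP1, which slows it, rose by 1.18.

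The lists around HSP70 were mixed in MRC5_CoH196 against MRC5_Mo, where 14.7% of genes tested were called lower and 17.2% higher. The counts of the HSP70 family list were near those shares, and those of the mitochondrial list were below them. Among 18 J-domain proteins 4 fell and 0 rose, led by DNAJC9 at -1.30 and including DNAJA1, an HSP70 partner of the cytosol, which stood at 98.4 to 106.8 FPKM in the 3 MRC5_Mo libraries and at 44.6 to 47.65 FPKM in those of MRC5_CoH196. Among 17 genes of the HSP70 family and nucleotide exchange 2 rose and 3 fell: HSPA2 rose by 1.08 and HSPA1L by 1.01, and HSPBP1 fell by 0.94, BAG2 by 0.72 and HSPA4 by 0.61. Small heat shock proteins other than HSPB1 had 3 of 7 higher and 1 lower. HSPB2 rose by 1.23, HSPB3 by 1.20 at 9 to 21 counts per library of those 2 groups, and CRYAB, a small heat shock protein of muscle and lens, by 0.81, while HSPB8 fell by 0.64. Among 19 mitochondrial chaperones and proteases LONP1 rose by 0.59, and OMA1 and DNAJC15 fell by 0.86 and 0.59. The falls and rises in this paragraph had an edgeR adjusted p between 0.00113 and 3.61e-16.

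**Figure D4:**
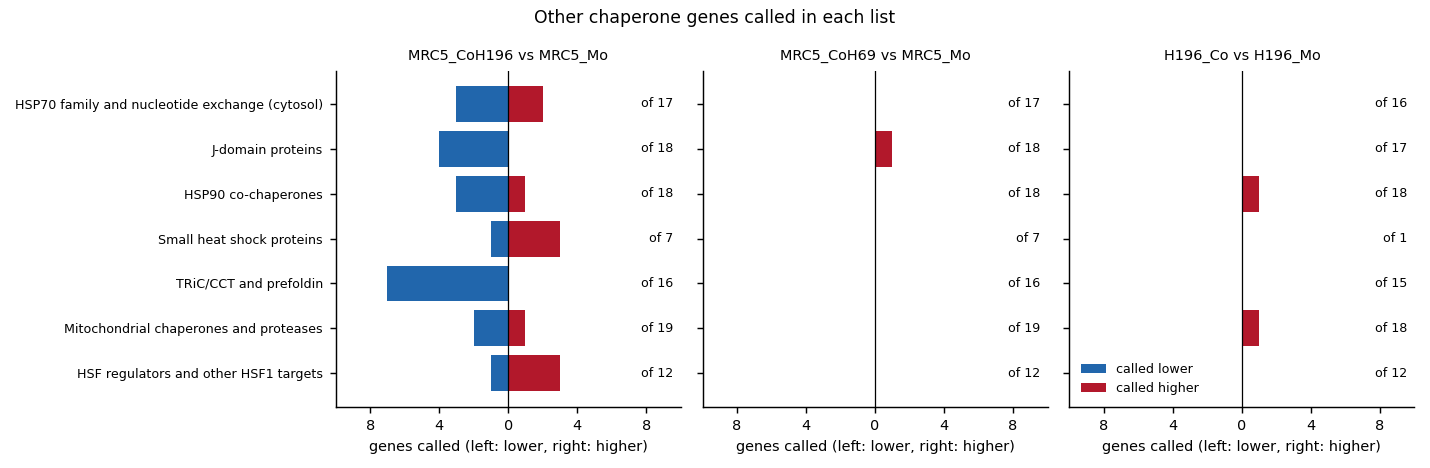
Number of genes called lower (blue, to the left of 0) and higher (red, to the right) in 7 lists of other chaperone genes, with the number tested at the right edge of each row. In MRC5_CoH196 against MRC5_Mo the TRiC/CCT and prefoldin list has 7 genes lower and 0 higher, and the small heat shock list has 1 lower and 3 higher.

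In MRC5_CoH69 against MRC5_Mo 1 of the 107 was called (0.421% of genes tested were called higher), the J-domain gene DNAJA4 at 0.92 (SE 0.25, edgeR adjusted p = 0.0268), with 12 to 18 counts per MRC5_Mo library and 25 to 34 per MRC5_CoH69 library, and it was no longer called in 5 of the 9 fits without one library. HSF1 stood at 0.02 and HSF2 at -0.05. In MRC5_CoH196 against MRC5_CoH69 10 rose and 19 fell, where 15.2% of genes tested were called higher and 13.1% lower. With limma 3 rose and 28 fell on log2(FPKM + 1), and 6 and 31 on log2(FPKM + 0.1). Of all 12819 genes tested, limma called 821 higher and 1746 lower on the first scale, and 1281 and 2567 on the second. HSPA6, a strictly inducible HSP70 whose transcript is near absent without stress, had 6 to 24 counts per library in the 3 MRC5 groups and was lower in MRC5_CoH196 than in MRC5_CoH69 by a log2 fold change of -1.15 (SE 0.36, edgeR adjusted p = 0.00643).

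In H196_Co against H196_Mo 2 of the 97 network genes tested rose and 0 fell, where 3.26% of genes tested were called higher and 0.601% lower. FKBP4, an HSP90 co-chaperone of the steroid receptor complexes, went from 88.8 ± 4.51 to 153.9 ± 6.15 FPKM (SD, n = 3) and rose by 0.87 (SE 0.073, edgeR adjusted p = 4.01e-08). LONP1, a mitochondrial matrix protease, went from 30.7 ± 1.40 to 45.0 ± 2.81 FPKM and rose by 0.62 (SE 0.076, edgeR adjusted p = 6.25e-06). HSF1 stood at 0.21 (SE 0.065, edgeR adjusted p = 0.0263) and HSF2 at -0.08. In the interaction 25 of 105 network genes were called positive and 8 negative (12.6% and 12.1% of genes tested), and with limma on log2(FPKM + 1) 30 and 5. Of all 13585 genes tested there, limma on that scale called 1560 positive and 822 negative. Of 18 HSP90 co-chaperones tested, 9 were called positive, with FKBP5 at 1.29, FKBP4 at 1.23 and NUDC at 0.76. In that list 2 were called negative, FNIP1 at -1.39 and FNIP2 at -0.75. Of 16 genes of the TRiC/CCT and prefoldin list 7 were called positive, with PDCL3 at 1.40 and CCT5 at 0.88, and 0 negative. HSF2, at -0.81, and HSPA2, at -0.90, were also among those called negative.

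Between the lines grown alone 25 of the 105 network genes were higher in H196_Mo and 26 lower, where 31.5% of genes tested were called higher and 30.2% lower. With limma this balance changed, to 44 higher and 15 lower on log2(FPKM + 1) and to 46 and 16 on log2(FPKM + 0.1). The balance of all 13585 genes tested changed the same way. Limma called 5277 higher and 2451 lower on log2(FPKM + 1), and 6072 and 2840 on log2(FPKM + 0.1). HSF1 was higher by 0.71 (SE 0.060, edgeR adjusted p = 8.42e-12), HSF2 by 1.34, HSPA4L by 2.36, and SERPINH1 was lower, at -4.29. Of 6 small heat shock proteins tested other than HSPB1, 5 were lower in H196_Mo and 1 was higher. The one that was higher was HSPB11, also known as an intraflagellar transport protein, with 277 to 339 counts per MRC5_Mo library and 623 to 637 per H196_Mo library, a log2 fold change of 0.77 (SE 0.093, edgeR adjusted p = 1.19e-08). Among those lower, CRYAB had 580 to 670 counts per MRC5_Mo library and HSPB7 302 to 347, and both had 0 counts in all 3 H196_Mo libraries, where 3 counts, the limit that a count of 0 allows, would be at most 0.187 CPM, counts scaled to library size. HSPB6 had 4246 to 4510 counts per MRC5_Mo library and 2 to 7 per H196_Mo library. The limit covers counting error only.

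The 10 chaperones varied together among the MRC5 libraries and less so among the H196 libraries. Over the 9 MRC5 libraries, which include the 3 that were lower for all 10, the Pearson correlations of log2 CPM between the 45 pairs ran from 0.843 to 0.998, with a median of 0.971. Over the 6 H196 libraries they ran from -0.407 to 0.95, with a median of 0.337. These values are a description, since the points share their groups. Of 9217 genes with a mean of at least 10 CPM in MRC5, the one most like HSPA8 over the 9 libraries was BRMS1 (r = 0.9996), followed by ODC1 (0.9992) and NME1 (0.9989). The gene most like HSPH1 was ECHDC1 (0.9992), like HSPA1B CCT5 (0.9988), like HSPA1A SLC52A2 (0.9987), like HSPD1 and HSP90AA1 KCNK2 (0.9974 and 0.9971), like HSPB1 RSAD1 (0.9973), like HSPE1 HNRNPD (0.9967), like HSP90AB1 PSMB1 (0.9964) and like DNAJB1 PSMD3 (0.9948). Of 9830 genes in H196, SNRPG was the most like HSPE1 (r = 0.9998 over 6 libraries), and it was the third most like HSPE1 in MRC5 (0.9958). SMARCAL1 was the most like HSP90AA1 there (0.9972).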

How the data were processed

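Total RNA was extracted with TRIzol, mRNA was enriched with oligo(dT) beads, and libraries were sequenced on a BGIseq-500. The authors filtered reads with SOAPnuke and aligned them with HISAT and Bowtie2, and the submitters' processing notes list HISAT2 2.1.0, Bowtie2 2.3.4.3, RSEM 1.3.1 and GRCh38.p13. The deposited tables, one per line, hold expected counts per gene (the authors' estimates, not normalized, 93.7% of the MRC5 values and 92.1% of the H196 values whole) and FPKM values, which the authors scaled by gene length and mapped fragments. An estimate splits reads shared by near-identical genes, so values of single copies such as HSPA1A and HSPA1B are less certain than their sum. The 30 columns of TPM and normalized counts and the authors' own fold changes, p-values and q-values were not used, nor was a duplicate of each table with identical values. Genes named in the tables as mRNA make up all rows.

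Expected counts were rounded, filtered with filterByExpr and tested two-sided with edgeR 4.0.16 (R 4.3.3; TMM scaling, quasi-likelihood) over 9 MRC5 libraries, 6 H196 libraries, or all 15 for comparisons between the lines, with Benjamini-Hochberg adjustment over all genes tested. Calls combine an adjusted p limit of 0.05 with a log2 fold limit of 0.58 in either direction, which is the study's. The SE was taken from the fold change and its F statistic. Alternatives used DESeq2 1.42.0, limma 3.58.1 on log2 FPKM with a pseudocount of 1 or 0.1, other filters, other libraries and a replicate block. Ratios were tested with exact permutation tests in scipy 1.17.1. Models were tested on simulated data first. Library totals of 16073597 to 19170560 counts limit the precision of genes with few counts, and intervals and limits cover counting error only. The 10 chaperones, the lists and the tests were chosen with earlier results of these data known. All 10 were named. Network genes were drawn from HSF1, HSF2 and up to 3 called genes per list and direction in each comparison. Correlated genes were drawn from those with the highest correlation to each of the 10. Not every gene that this rule gives is printed, so the genes named are a further pick from it. CCT5 in the interaction, and HSPA4L and HSPB6, follow the same rule. Promoter sequences are from RefSeq (GRCh38.p14), matched by symbol for all 10.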

Additional observations from a re-analysis of the deposited data

Results flagged for a closer look

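The response of every one of the 10 chaperones differed between the 2 partners of the H196 and MRC5 co-culture, by an interaction test over all 15 libraries (edgeR, adjusted p under 0.05). The log2 fold change in H196 minus that in MRC5 was 1.38 for HSPH1, 1.10 for HSP90AA1, 1.09 for HSPA8, 0.97 for HSPA1A, 0.91 for HSPE1, 0.87 for HSPA1B, 0.78 for HSPD1, 0.52 for HSPB1, 0.43 for HSP90AB1 and 0.26 for DNAJB1. For 9 of them the H196 groups overlapped, and for HSP90AA1 the lines differed in direction, at 0.33 in H196_Co and -0.74 in MRC5_CoH196. The H196 value was short of the fold limit and, at 0.25 with limma on both FPKM scales, was not past an adjusted p of 0.05 (0.0552 and 0.0519). The DNAJB1 difference had an adjusted p of 0.0095 (edgeR) and was not past 0.05 in every fit without one library, where it reached 0.0974. The summed fibroblast markers moved in MRC5_CoH196 as well, from 6026 to 6684 FPKM in MRC5_Mo to 3520 to 3686 FPKM. Most of that fall lay in COL1A1 (mean 2628 to 785 FPKM) and COL1A2 (1974 to 1191). COL3A1, FBN1 and THY1 also fell, COL6A3, LUM, PDGFRA and PDGFRB rose, and DCN, FAP and S100A4 differed little. The part of these markers in the difference was not tested.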

How the results depend on the processing

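The count of called chaperones was 7 in MRC5_CoH196 against MRC5_Mo under DESeq2 size factors, DESeq2's Wald test, no filter, at least 10 counts in every library, only the groups compared and every fit without one library (7 to 7), and 8 under both FPKM scales. With no fold limit it was 10 in MRC5_CoH196 against MRC5_CoH69 (6 with the limit, 8 on both FPKM scales, 5 to 6 without one library), 2 in MRC5_CoH69 against MRC5_Mo (0 with it) and 1 in H196_Co against H196_Mo (0 with it). In the interaction it was 7 to 8 and between the lines 7 to 7 without one library, and on both FPKM scales 8 and 7. With HSPA1A and HSPA1B summed, 6 of 9 were called in MRC5_CoH196 against MRC5_Mo.

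Network genes called in MRC5_CoH196 against MRC5_Mo numbered 31, and 47 on log2(FPKM + 0.1), where all genes were called 1437 higher and 2869 lower in place of 2207 and 1885. With no fold limit the network counts were 88 in that comparison, 4 in MRC5_CoH69 against MRC5_Mo, 89 in MRC5_CoH196 against MRC5_CoH69, 22 in H196_Co against H196_Mo, 88 between the lines and 73 in the interaction, since that setting drops a criterion. In MRC5_CoH69 against MRC5_Mo 1 network gene was called, 0 with DESeq2's Wald test and with log2(FPKM + 1), and 0 to 1 without one library. In H196_Co against H196_Mo 2 were called, 1 on each FPKM scale and 1 to 3 without one library, with 1 left without H196_Co replicate 3 or without H196_Mo replicate 1.

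Values near 0 changed sign. HSPA1A in MRC5_CoH69 against MRC5_Mo was 0.01, -0.0004 with DESeq2's size factors and Wald test and -0.01 on both FPKM scales, and -0.04 to 0.05 without one library. In H196_Co against H196_Mo both FPKM scales, on which the median of all genes was -0.06 and -0.08, turned HSPA1A (0.04 to -0.04), HSP90AB1 (0.03 to -0.04), HSPB1 (0.06 to -0.02) and HSPD1 (0.05 to -0.02). Without one library HSPA1A ran from -0.06 to 0.10, HSPA8 from -0.10 to 0.03, HSPE1 from -0.25 to 0.01 and HSPB1 from -0.02 to 0.12 there. The HSPD1 to HSPE1 ratio in MRC5_CoH69 against MRC5_Mo was -0.03, 0.01 with expected counts and -0.08 to 0.02 without one library, and HSPA1A plus HSPA1B to HSPA8 in H196_Co against H196_Mo was -0.04 to 0.03. The cause of these changes was not tested.

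Libraries of different groups with the same replicate number did not deviate together: the correlations of their deviations from the group means ran from -0.116 to 0.081 in MRC5 and from -0.151 to 0.0334 in H196, so the numbers were not taken to pair them. With the replicate number as a block the chaperones called were 7, 0, 6, 0, 7 and 7 in the order of comparisons MRC5_CoH196 against MRC5_Mo, MRC5_CoH69 against MRC5_Mo, MRC5_CoH196 against MRC5_CoH69, H196_Co against H196_Mo, the lines and the interaction, the same counts as without it.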
